A study of Mus musculus with 12 samples.

Results

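TCRBV13-01, TCRBV13-02 and TCRBV13-03 are 3 closely related variable (V) gene segments of the mouse T cell receptor β chain (TCRβ). They were followed here across the TILs (tumor-infiltrating lymphocytes, CD8+) and 3 CD8+ subsets of the spleen. The members were chosen by name alone, as every rearrangement whose V gene was assigned to one of these 3 genes in any of 12 libraries. They are 3 of the 35 V genes named in the data, and they held 58057 of 288925 rearrangements (20.1%) and 153417 of 693860 templates, a template being 1 counted copy of a rearranged TCRβ gene. Of these rearrangements, 45248 were productive, 12618 were out of frame and 191 carried a stop codon. TCRBV13-01 gave 12912 unique productive rearrangements, TCRBV13-02 gave 18565 and TCRBV13-03 gave 13771.

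All libraries came from female C57BL/6 mice bearing MC38, a transplantable colon adenocarcinoma line of the same strain, and all mice had received anti-CTLA-4 Ab and anti-PD-L1 Ab, so there was no untreated group. The 4 groups were splenic CD27hi CX3CR1- cells (CD27hiCX3CR1lo in the labels), splenic CD27lo CX3CR1- cells (CD27loCX3CR1lo), splenic CX3CR1+ cells (CX3CR1hi) and CD8+ TILs, with 1 library each in 3 experiments, called A, B and C here. The experiment is taken from a code that the sample titles share. Several mice were used per experiment, and whether their cells were pooled and whether spleens and tumors came from the same mice is not given in the sources used here. Per the study's methods, the splenic subsets were sorted by flow cytometry, and the TILs were isolated by positive selection on CD8 without such a sort. Genomic DNA of the TCRβ locus was sequenced, so no CD8, CD27 or CX3CR1 level was measured and the labelled identities could not be checked against markers. Libraries held 5893 to 113660 productive templates and 1359 to 54639 unique productive rearrangements. The TIL libraries held the fewest unique rearrangements, and libraries of one group shared 0.515 to 2.90% of the rearrangements of the smaller one, so none was a second copy of another. A count of 3 templates in a library corresponded to 0.00264 to 0.0509% of its productive templates.

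A TCRβ gene is assembled in the thymus by joining 1 V, 1 diversity (D) and 1 joining (J) segment, with bases trimmed from the segment ends and others inserted at the joints. The joint encodes the third complementarity-determining region (CDR3), the loop that lies over the presented peptide, while the first and second such loops are encoded by the V gene itself. A joint that keeps the reading frame gives a productive rearrangement. An out-of-frame joint gives no receptor and is carried along in cells whose other TCRβ allele is productive, so its V usage is a record of joining without selection on the protein. The TCRBV13 genes form the family known earlier as mouse Vβ8, one of the most used families in this species.

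The segments lie near each other on chromosome 6. On the RefSeq annotation of mm10, Trbv13-1 (TCRBV13-01) spans chr6:41116036-41116468, Trbv13-2 (TCRBV13-02) spans chr6:41121396-41121832 and Trbv13-3 (TCRBV13-03) spans chr6:41130147-41130585, each annotated as a V segment. The last 40 bases of each segment, read from rearrangements in which the V end was not trimmed, are shown because they fix the start of the CDR3 that each gene can give. Capitals mark the 16 bases from the codon of the conserved cysteine onward.
TCRBV13-01: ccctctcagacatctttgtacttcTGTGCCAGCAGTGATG
TCRBV13-02: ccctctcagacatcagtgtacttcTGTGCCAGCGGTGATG
TCRBV13-03: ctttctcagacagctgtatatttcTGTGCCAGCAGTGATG
These letters were found in 98.7% of 3615 untrimmed rearrangements of TCRBV13-01, 98.8% of 6316 of TCRBV13-02 and 98.6% of 2201 of TCRBV13-03. In the capitals, TCRBV13-01 and TCRBV13-03 were identical and TCRBV13-02 differed from each at 1 base. Upstream of them, TCRBV13-03 was the most different. The coding result is that 87.6% of unique productive CDR3s of TCRBV13-01 and 81.5% of TCRBV13-03 began CASS, whereas 96.3% of TCRBV13-02 began CASG. The next germline residue is aspartate, and CASSD opened 50.9% of TCRBV13-01 and 37.9% of TCRBV13-03 CDR3s while CASGD opened 60.7% of TCRBV13-02 CDR3s. V ends were left whole in 28.0% of TCRBV13-01, 34.0% of TCRBV13-02 and 16.0% of TCRBV13-03 unique productive rearrangements, with a mean of 2.16, 1.82 and 2.80 bases removed.

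Among unique productive rearrangements, the 3 genes kept similar shares in all groups, with TCRBV13-02 ahead. Counting each rearrangement once, whatever its number of templates, shows how many clones use a gene. Given in the order of experiments A, B and C, TCRBV13-02 made up 8.90, 9.17 and 8.80% in CD27hi CX3CR1- cells, 9.33, 9.20 and 9.28% in CD27lo CX3CR1- cells, 9.20, 9.18 and 9.03% in CX3CR1+ cells and 10.3, 7.87 and 7.96% in TILs. The splenic values lay within a narrow band, and the TILs held both the highest and the lowest value, so the groups overlapped. It was the most used of 32 V genes in 9 of 12 libraries and never below rank 2, and it exceeded both other members in 12 of 12 libraries.

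TCRBV13-01 made up 6.28, 6.16 and 6.24% of unique productive rearrangements in CD27hi CX3CR1- cells, 6.32, 6.18 and 6.48% in CD27lo CX3CR1- cells, 5.93, 6.55 and 6.42% in CX3CR1+ cells and 5.45, 6.19 and 7.59% in TILs. The TIL libraries again spanned the splenic values, with experiment A lowest and experiment C highest. The TIL values rested on 74 of 1359, 96 of 1550 and 165 of 2173 rearrangements, and the Wilson 95% intervals of experiments A (4.36 to 6.78%) and C (6.55 to 8.78%) met.

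TCRBV13-03 made up 6.58, 6.98 and 6.72% in CD27hi CX3CR1- cells, 6.56, 6.24 and 6.83% in CD27lo CX3CR1- cells, 6.70, 6.55 and 6.83% in CX3CR1+ cells and 4.78, 5.68 and 6.67% in TILs. The TILs of experiments A and B lay below all 9 splenic libraries, and those of experiment C lay among them. TCRBV13-01 ranked 3 to 8 and TCRBV13-03 ranked 4 to 10 among the V genes, and TCRBV13-03 exceeded TCRBV13-01 in 8 of 12 libraries, so these neighbours in the order did not separate.

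The main contrast chosen here sets CX3CR1+ cells and TILs against the 2 CX3CR1- subsets, which joins splenic and tumor cells on 1 side. With edgeR's quasi-likelihood test, the experiment as a block and Benjamini-Hochberg adjustment over 24 V genes, none of the 3 genes passed for unique productive rearrangements. The log2 ratio of CX3CR1+ cells and TILs over the CX3CR1- subsets was 0.03 ± 0.055 (SE, edgeR adjusted p = 0.838) for TCRBV13-01, -0.04 ± 0.047 (adjusted p = 0.708) for TCRBV13-02 and -0.09 ± 0.058 (adjusted p = 0.314) for TCRBV13-03. Over all V genes tested, 4 of 24 were called (16.7%). No member had an unadjusted p below 0.05, and DESeq2 called none of them. The family as a whole took 21.9% ± 0.315 (SD, n = 3) of CD27hi CX3CR1-, 22.1% ± 0.493 of CD27lo CX3CR1-, 22.1% ± 0.257 of CX3CR1+ and 20.8% ± 1.27 of TIL rearrangements. Its difference of -0.57 points ± 0.555 (SD over 3 experiments) gave an adjusted p of 0.459 in the two-sided exact permutation test within experiments, where the adjustment runs over the 17 single-value tests made.

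Single pairs of groups gave the same picture for the members. Their log2 ratios over CX3CR1+ against CD27hi CX3CR1- cells (7 of 24 V genes called, 29.2%), CD27lo against CD27hi CX3CR1- cells (0.0% called by edgeR, 4 V genes at an unadjusted p below 0.05), TILs against CD27hi CX3CR1- cells (4.17%) and TILs against CX3CR1+ cells (0.0%, 2 unadjusted) ran from 0.02 to 0.05 for TCRBV13-01, from -0.08 to 0.05 for TCRBV13-02 and from -0.24 to -0.01 for TCRBV13-03. The lowest edgeR adjusted p of any of these was 0.316, and DESeq2 also called no member in any pair.

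**Figure D1:**
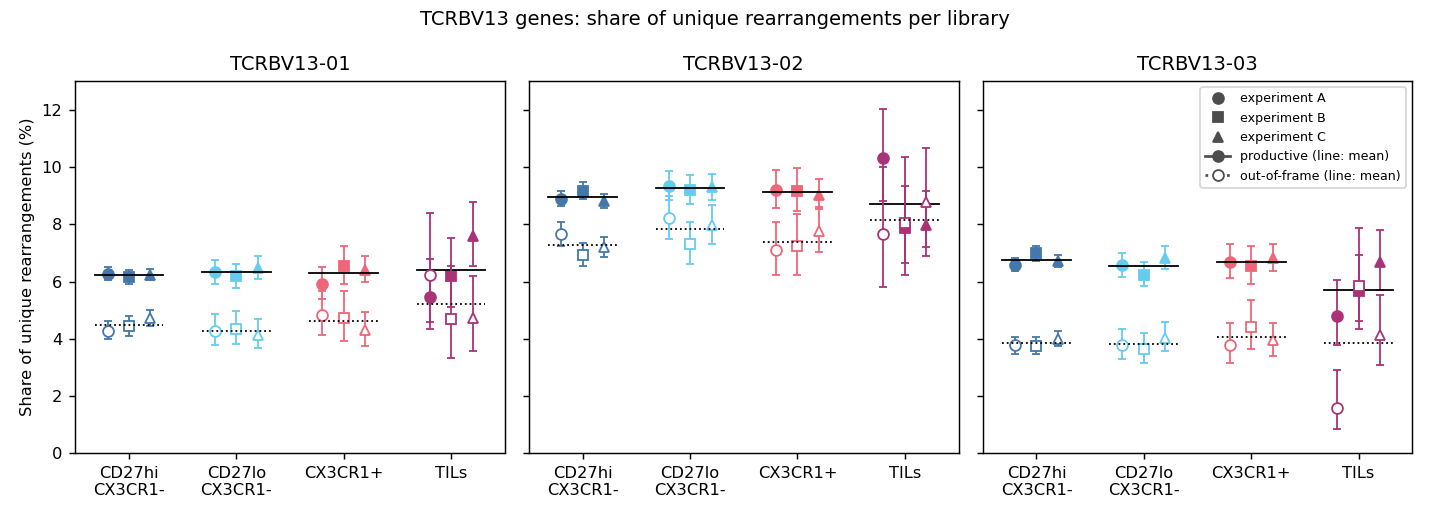
Share of unique rearrangements (%, y axis) of each TCRBV13 gene in the 4 groups (x axis), with filled symbols for productive and open symbols for out-of-frame rearrangements, 1 symbol per library (shape gives the experiment), Wilson 95% intervals as bars and group means as solid or dotted lines. In every splenic library the productive share of each gene lies above its out-of-frame share, and the TIL libraries spread most.

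Out-of-frame rearrangements gave the family a smaller share. TCRBV13-02 made up 7.65, 6.93 and 7.19% of out-of-frame rearrangements in CD27hi CX3CR1- cells, 8.22, 7.31 and 7.96% in CD27lo CX3CR1- cells, 7.11, 7.23 and 7.78% in CX3CR1+ cells and 7.66, 8.05 and 8.78% in TILs. TCRBV13-01 made up 4.29, 4.44 and 4.72%, then 4.29, 4.36 and 4.15%, then 4.84, 4.73 and 4.32%, and in TILs 6.22, 4.69 and 4.73%, in the same order of groups. TCRBV13-03 made up 3.77, 3.75 and 3.99%, then 3.79, 3.63 and 4.05%, then 3.79, 4.42 and 3.94%, and in TILs 1.59, 5.86 and 4.15%. The splenic groups overlapped for each gene and the TILs scattered widely, with as few as 627 out-of-frame rearrangements in a TIL library. Across the groups, edgeR called 1 of 24 V genes out of frame (4.17%), and the members had log2 ratios of 0.14 ± 0.084, 0.05 ± 0.066 and 0.05 ± 0.097 (SE), with adjusted p of 0.544, 0.753 and 0.936.

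Within libraries, all 3 genes took a larger share of productive than of out-of-frame rearrangements. The log2 ratio was 0.49 ± 0.034 (SE, edgeR adjusted p = 8.9e-13), or 1.40-fold, for TCRBV13-01, 0.27 ± 0.030 (adjusted p = 5.15e-09), or 1.21-fold, for TCRBV13-02, and 0.78 ± 0.037 (adjusted p = 2.27e-16), or 1.72-fold, for TCRBV13-03. Such a difference was the rule among V genes, of which 95.8% differed between frames and 41.7% were called higher among productive rearrangements. The members ranked 6, 8 and 4 of 24 in this ratio, the median V gene lay at -0.19, and the highest was TCRBV14-01 at 0.96. The frame also changed the order of the members, since TCRBV13-03 lay above TCRBV13-01 in 8 of 12 productive but in 1 of 12 out-of-frame sets. The frame fit took the 12 libraries as separate, although they came from 3 experiments and those of an experiment shared clones. Its p-values may therefore overstate the replication.

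Every splenic library showed the higher productive share for every member. The per-library log2 ratio ran from 0.29 to 0.64 for TCRBV13-01, from 0.18 to 0.40 for TCRBV13-02 and from 0.57 to 0.90 for TCRBV13-03 in the spleen. The exceptions were TILs, namely experiment A for TCRBV13-01 (-0.19), experiments B (-0.03) and C (-0.14) for TCRBV13-02 and experiment B for TCRBV13-03 (-0.04), and the family as a whole lay above 0 in 12 of 12 libraries. The frame ratio was not shown to differ between CX3CR1+ cells with TILs and the CX3CR1- subsets. The interaction was -0.06 ± 0.084, -0.04 ± 0.070 and -0.09 ± 0.091 (SE) for the members, with edgeR adjusted p of 0.711, 0.734 and 0.689. Over all V genes edgeR called 0 of 24 interactions (0.0%), with 5 at an unadjusted p below 0.05 and 0 by DESeq2.

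Counted by templates, which weigh each clone by its size, the shares were stable in the CX3CR1- subsets and scattered in CX3CR1+ cells and TILs. TCRBV13-01 made up 6.08, 6.13 and 6.14% of productive templates in CD27hi CX3CR1- cells, 6.45, 6.04 and 6.78% in CD27lo CX3CR1- cells, 11.9, 4.53 and 7.87% in CX3CR1+ cells and 6.69, 3.45 and 13.6% in TILs. The CX3CR1+ cells and TILs of experiment B lay below all CX3CR1- libraries, while the CX3CR1+ cells of experiment A and the TILs of experiment C lay far above. TCRBV13-03 made up 6.45, 6.98 and 6.63%, then 6.51, 6.60 and 6.59%, in the CX3CR1- subsets, 6.93, 4.73 and 5.43% in CX3CR1+ cells and 2.70, 9.57 and 7.46% in TILs, so that its TIL values lay on both sides of the splenic ones.

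TCRBV13-02 was the member whose template shares did not overlap. It made up 8.68, 9.09 and 8.58% of productive templates in CD27hi CX3CR1- cells, 8.55, 8.53 and 9.06% in CD27lo CX3CR1- cells, 8.31, 5.38 and 6.73% in CX3CR1+ cells and 8.20, 6.68 and 7.54% in TILs. All 6 libraries of CX3CR1+ cells and TILs lay below all 6 CX3CR1- libraries. The mean difference was -1.61 points, with an exact permutation p of 0.00926, the smallest that arrangements within experiments allow, and an adjusted p of 0.0556 over the 24 V genes, so it did not pass. TCRBV02-01, TCRBV15-01 and TCRBV20-01, also lower in CX3CR1+ cells and TILs, reached the same exact permutation p and adjusted p. The result was thus not particular to TCRBV13-02.

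In the edgeR test of template counts no member passed. The log2 ratio of CX3CR1+ cells and TILs over the CX3CR1- subsets was 0.24 ± 0.304 (SE, adjusted p = 0.564) for TCRBV13-01, -0.31 ± 0.220 (adjusted p = 0.277) for TCRBV13-02 and -0.13 ± 0.290 (adjusted p = 0.727) for TCRBV13-03. Of 24 V genes, 7 were called (29.2%), 6 of them lower. The median V gene lay at -0.41 when shares of the library total were compared, at -0.18 with TMM scaling and at -0.05 with DESeq2's size factors, so the negative values of TCRBV13-02 and TCRBV13-03 were less negative than that of the median gene. TCRBV13-02 stayed below 0 with TMM but not with DESeq2's size factors, and TCRBV13-03 was above 0 with both. Single pairs of groups gave log2 ratios from -0.39 to 0.30 for the members, with no edgeR adjusted p below 0.357, where 0.0, 0.0, 4.17 and 0.0% of V genes were called.

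**Figure D2:**
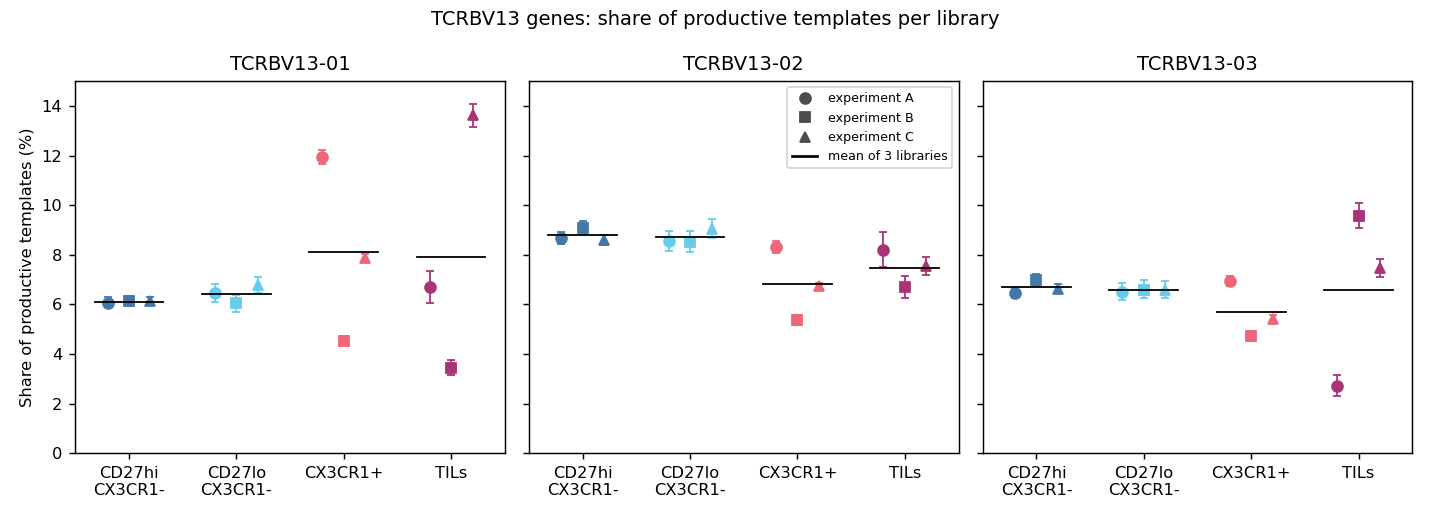
Share of productive templates (%, y axis) of each TCRBV13 gene in the 4 groups (x axis), 1 symbol per library (shape gives the experiment), with Wilson 95% intervals as bars, which cover counting error only, and means of 3 libraries as lines. The CX3CR1- libraries of each gene sit close together, and for TCRBV13-02 all 6 CX3CR1+ and TIL libraries sit below them.

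The J segments joined to the members were compared with those joined to V genes outside TCRBV13 in the same libraries. The 12 tested J genes lie in clusters 1 and 2, TCRBJ01 and TCRBJ02, each behind its own D segment. Among productive rearrangements, edgeR called 7 of 12 J genes for TCRBV13-01 (58.3%, 3 higher and 4 lower), 9 of 12 for TCRBV13-02 (75.0%, 5 higher and 4 lower) and 3 of 12 for TCRBV13-03 (25.0%, 2 higher and 1 lower). The differences were small, from -0.41 to 0.59 on the log2 scale. Like the frame fit, these fits took the 12 libraries as separate, so their p-values may overstate the replication.

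TCRBV13-01 was joined more often to TCRBJ01-01. This J gene made up 10.8, 11.2 and 10.2% of its unique productive rearrangements in CD27hi CX3CR1- cells, 12.8, 10.9 and 12.5% in CD27lo CX3CR1- cells, 10.6, 12.0 and 9.59% in CX3CR1+ cells and 9.46, 10.4 and 9.88% in TILs. For V genes outside the family the values were 8.78, 9.04 and 8.38%, then 10.5, 9.98 and 10.5%, then 8.94, 9.93 and 8.57%, and in TILs 8.89, 9.75 and 10.1%. TCRBV13-01 lay above them in 11 of 12 libraries, the TILs of experiment C being the exception, and the log2 ratio was 0.26 ± 0.034 (SE, edgeR adjusted p = 1.46e-08). TCRBJ01-05 (0.17, adjusted p = 0.0181) and TCRBJ02-07 (0.12, adjusted p = 0.000144) were also higher with TCRBV13-01. TCRBJ02-05 (-0.22, adjusted p = 4.92e-06), TCRBJ02-02 (-0.18, adjusted p = 0.00552), TCRBJ01-03 (-0.18, adjusted p = 0.00803) and TCRBJ02-01 (-0.09, adjusted p = 0.0259) were lower, although TCRBJ02-05 turned to 0.022 with at least 2 templates.

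TCRBV13-02 was joined less often to TCRBJ01-03. The J gene made up 3.46, 3.36 and 4.29% of its unique productive rearrangements in CD27hi CX3CR1- cells, 3.80, 3.54 and 3.83% in CD27lo CX3CR1- cells, 5.18, 4.09 and 4.77% in CX3CR1+ cells and 5.04, 3.31 and 2.96% in TILs, against 5.05, 5.43 and 5.03%, then 5.00, 4.66 and 4.74%, then 5.07, 6.20 and 6.07%, and in TILs 3.52, 5.24 and 4.62% for V genes outside the family. It lay below in all CX3CR1- libraries and above in the CX3CR1+ cells and TILs of experiment A. The log2 ratio was -0.41 ± 0.061 (SE, edgeR adjusted p = 1.24e-08). TCRBJ02-02 (-0.32, adjusted p = 6.55e-07), TCRBJ02-01 (-0.18, adjusted p = 2.59e-05) and TCRBJ01-01 (-0.10, adjusted p = 0.0363) were also lower, but with at least 2 templates TCRBJ01-01 turned to 0.13. TCRBJ01-05 (0.25, adjusted p = 0.000197), TCRBJ01-06 (0.22, adjusted p = 0.00707), TCRBJ01-02 (0.14, adjusted p = 0.00577), TCRBJ02-03 (0.11, adjusted p = 0.0363) and TCRBJ02-05 (0.10, adjusted p = 0.0196) were higher, of which TCRBJ01-02, TCRBJ02-03 and TCRBJ02-05 turned below 0 with at least 2 templates.

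TCRBV13-03 gave the largest single ratio of the members, with TCRBJ01-06. This J gene made up 4.50, 4.19 and 3.21% of TCRBV13-03 in CD27hi CX3CR1- cells, 5.28, 3.48 and 3.40% in CD27lo CX3CR1- cells, 4.81, 3.01 and 2.95% in CX3CR1+ cells and 4.62, 1.14 and 7.69% in TILs, the TIL values resting on 3, 1 and 11 rearrangements. V genes outside the family gave 2.60, 2.60 and 2.48%, then 2.43, 2.78 and 2.79%, then 2.85, 3.25 and 2.01%, and in TILs 3.98, 2.90 and 2.84%. TCRBV13-03 lay above in all libraries except the CX3CR1+ cells and TILs of experiment B, with a log2 ratio of 0.59 ± 0.080 (SE, edgeR adjusted p = 1.36e-06). TCRBJ01-01 was higher (0.17, adjusted p = 0.00696) and TCRBJ01-03 lower (-0.16, adjusted p = 0.0225), the latter as with both other members.

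Out of frame, the called J genes were partly others. For TCRBV13-01 edgeR called 0 of 12 J genes (0.0%, 4 at an unadjusted p below 0.05), for TCRBV13-02 8 of 12 (66.7%) and for TCRBV13-03 5 of 12 (41.7%). For TCRBV13-02, TCRBJ01-01 to TCRBJ01-05 were lower out of frame and TCRBJ02-04, TCRBJ02-05 and TCRBJ02-07 were higher. J genes called in both frames numbered 0, 5 and 1 for the 3 members, and 0, 3 and 1 of these had the same sign. Cluster 1 as a whole made up 31.5% ± 5.06 (SD, n = 12), 30.6% ± 5.20 and 30.4% ± 5.68 of the members' out-of-frame rearrangements against 36.7% ± 3.50 for V genes outside the family, below it in 11 of 12 libraries for each member. Among productive rearrangements it made up 35.7% ± 1.48, 34.7% ± 2.31 and 33.8% ± 4.93 against 34.1% ± 1.02, below in 2, 6 and 6 of 12 libraries.

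**Figure D3:**
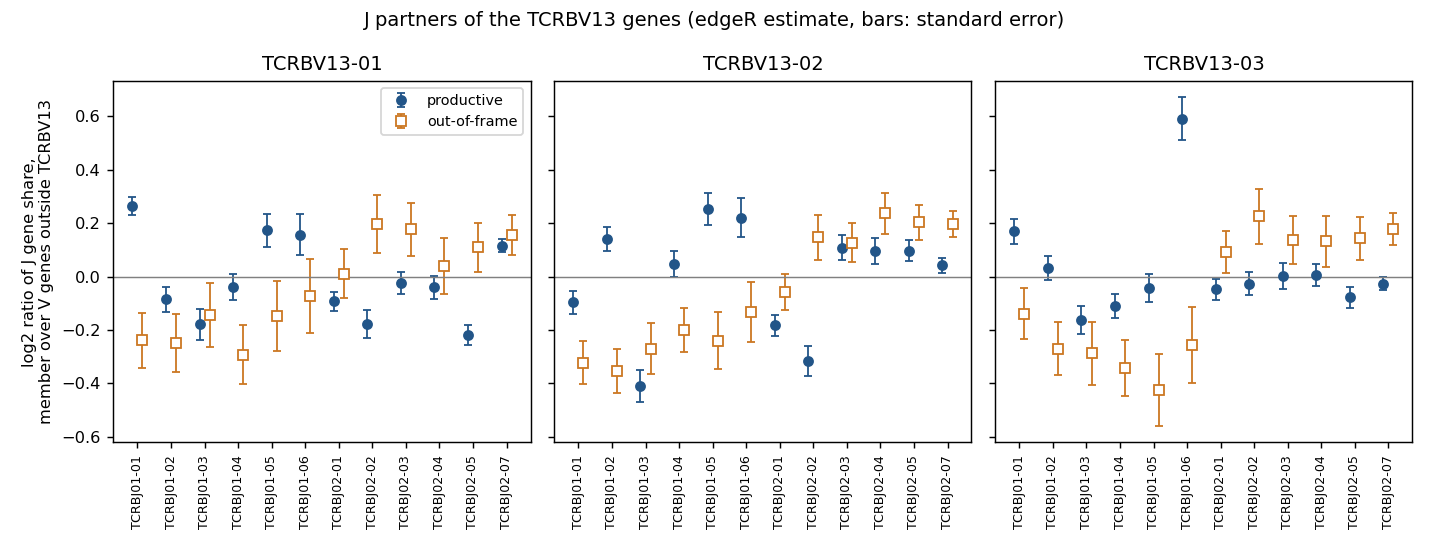
log2 ratio of J gene share in each TCRBV13 gene over V genes outside TCRBV13 (y axis, edgeR estimate over 12 libraries, bars SE) for the 12 tested J genes (x axis), filled circles productive and open squares out-of-frame. Among productive values, TCRBJ01-06 stands highest for TCRBV13-03 and TCRBJ01-03 lowest for TCRBV13-02, and the out-of-frame values of TCRBV13-02 are below 0 for TCRBJ01-01 to TCRBJ01-05.

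The CDR3s of TCRBV13-01 and TCRBV13-03 were shorter than those of V genes outside the family. The mean CDR3 length of unique productive rearrangements, averaged over 12 libraries, lay 0.68 nucleotides below for TCRBV13-01 (below in 12 of 12 libraries), 0.90 below for TCRBV13-03 (above in 1 library, the TILs of experiment A) and 0.12 below for TCRBV13-02 (above in 5). The members also carried fewer inserted bases, with means of 3.24, 3.27 and 3.19 per rearrangement against 3.54 outside the family, lower in 12, 11 and 12 of 12 libraries. Rearrangements without any inserted base made up 10.9, 11.3 and 9.99% of the members against 8.87%. Pooled over libraries, out-of-frame rearrangements of the same genes held more inserted bases (3.81, 3.86 and 3.74 against 3.24, 3.24 and 3.22) and longer joints (means of 42.19, 42.78 and 41.36 against 41.29, 41.95 and 40.98 nucleotides).

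TCRBV13-02 was the member whose CDR3 length differed between groups. Its mean was 41.96, 42.01 and 41.96 nucleotides in CD27hi CX3CR1- cells, 42.00, 41.94 and 42.09 in CD27lo CX3CR1- cells, 41.75, 41.70 and 41.74 in CX3CR1+ cells and 41.49, 41.61 and 41.65 in TILs. All 6 libraries of CX3CR1+ cells and TILs lay below all 6 CX3CR1- libraries, by -0.34 ± 0.0201 nucleotides (SD over 3 experiments, exact permutation p = 0.00926, adjusted p = 0.0394 over 17 tests). The clonality tests of the 3 members, given below, reached the same p. The adjusted p of the length difference fell below 0.05 only with these ties among the 17 tests. The call was lost when clones were weighted by templates (-1.17 nucleotides, adjusted p = 0.105), and the sign turned when only rearrangements with at least 2 templates were kept (0.319, adjusted p = 0.122). The other members showed differences of -0.04 for TCRBV13-01 and 0.10 for TCRBV13-03, each with an exact permutation adjusted p of 0.889. With at least 2 templates both passed, at 0.767 and 0.793 nucleotides (exact permutation, adjusted p = 0.0315 each), so the direction for length depended on which clones were counted. Inserted bases differed by 0.10, 0.11 and 0.03 between the same groups, with adjusted p of 0.362, 0.256 and 0.889 in the same exact permutation test.

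Weighted by templates, the CDR3 length of TCRBV13-01 was 40.9 and 41.0 nucleotides in the CD27hi and CD27lo CX3CR1- subsets, 38.3 ± 1.04 (SD, n = 3) in CX3CR1+ cells and 38.6 ± 3.48 in TILs. For TCRBV13-02 the means were 41.5, 41.6, 40.5 ± 1.30 and 40.3 ± 0.796, and for TCRBV13-03 they were 40.6, 40.6, 39.5 ± 1.00 and 40.4 ± 1.33, whereas V genes outside the family gave 41.6, 41.7, 41.8 and 42.2. With these weights the difference of CX3CR1+ cells and TILs from the CX3CR1- subsets was -2.52 nucleotides for TCRBV13-01 (exact permutation, adjusted p = 0.105) and -0.64 for TCRBV13-03 (adjusted p = 0.332). CDR3s of 10 residues held 20.9% ± 21.5 of TCRBV13-01 templates in CX3CR1+ cells and 25.8% ± 29.4 in TILs, with SDs as large as the means, against 1.84 and 2.21% in the CD27hi and CD27lo CX3CR1- subsets. In the same order, they held 5.77% ± 4.39, 13.9% ± 9.66, 2.62 and 2.34% of TCRBV13-02 templates. For TCRBV13-03 the values were 0.456, 0.107, 1.70 and 1.23%, and for V genes outside the family 0.609, 0.316, 1.04 and 0.948%.

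**Figure D4:**
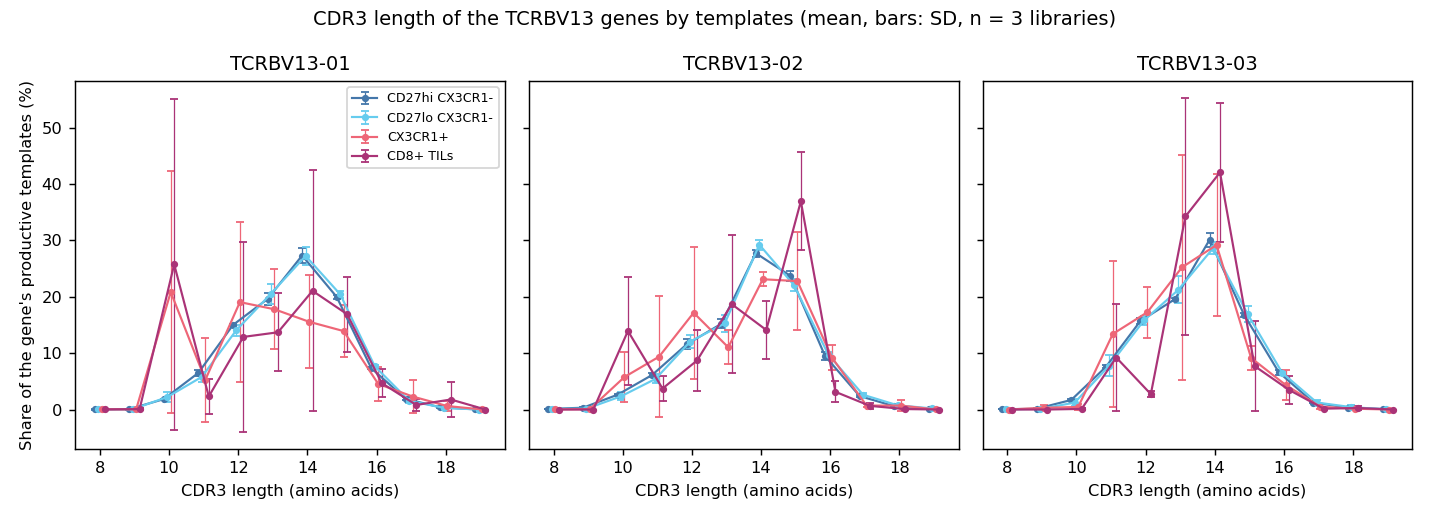
Share of a gene's productive templates (%, y axis, mean of 3 libraries, bars SD) by CDR3 length in amino acids (x axis) for each TCRBV13 gene, 1 line per group. In CX3CR1+ cells and TILs the 10-residue class of TCRBV13-01 stands above the CX3CR1- lines with bars as large as the means.

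Clone sizes within each gene were far more uneven in CX3CR1+ cells and TILs. Clonality runs from 0, when all clones of a gene have the same number of templates, to 1, when a single clone holds them all. In TCRBV13-01 it was 0.00870, 0.00941 and 0.00930 in CD27hi CX3CR1- cells, 0.0241, 0.0144 and 0.0216 in CD27lo CX3CR1- cells, 0.420, 0.332 and 0.475 in CX3CR1+ cells and 0.335, 0.246 and 0.496 in TILs. In TCRBV13-02 it was 0.00946, 0.0111 and 0.0108, then 0.0115, 0.0111 and 0.0181, then 0.374, 0.312 and 0.373, and in TILs 0.221, 0.399 and 0.458. In TCRBV13-03 it was 0.00900, 0.00971 and 0.00883, then 0.0157, 0.0178 and 0.0160, then 0.400, 0.317 and 0.332, and in TILs 0.205, 0.456 and 0.409. In each member, all 6 CX3CR1+ and TIL libraries lay above all 6 CX3CR1- libraries.

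The differences of CX3CR1+ cells and TILs from the CX3CR1- subsets were 0.369 ± 0.0967 (SD over 3 experiments), 0.344 ± 0.0569 and 0.340 ± 0.0437 for the members in order, in the same direction in 3 of 3 experiments. Each gave an exact permutation p of 0.00926, the smallest possible, and an adjusted p of 0.0394 over 17 tests. The study had already reported higher clonality of CX3CR1+ cells and TILs for whole repertoires of these experiments. The tests of the members were therefore not independent of that result. At full depth, V genes outside the family stood at 0.265, 0.346 and 0.296 in CX3CR1+ cells and 0.287, 0.287 and 0.299 in TILs, and the members exceeded them in 9, 8 and 8 of 12 libraries. When all libraries were thinned to 5893 templates, the CX3CR1+ values of TCRBV13-01 were 0.288, 0.223 and 0.338 and its TIL values 0.335, 0.203 and 0.421, while V genes outside the family gave 0.173, 0.260 and 0.170 in CX3CR1+ cells and 0.287, 0.253 and 0.243 in TILs. In experiment C the TILs were above the CX3CR1+ cells for each member at either depth. In experiment A the CX3CR1+ cells were above the TILs for each member at full depth, but for TCRBV13-01 the order turned at equal depth.

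**Figure D5:**
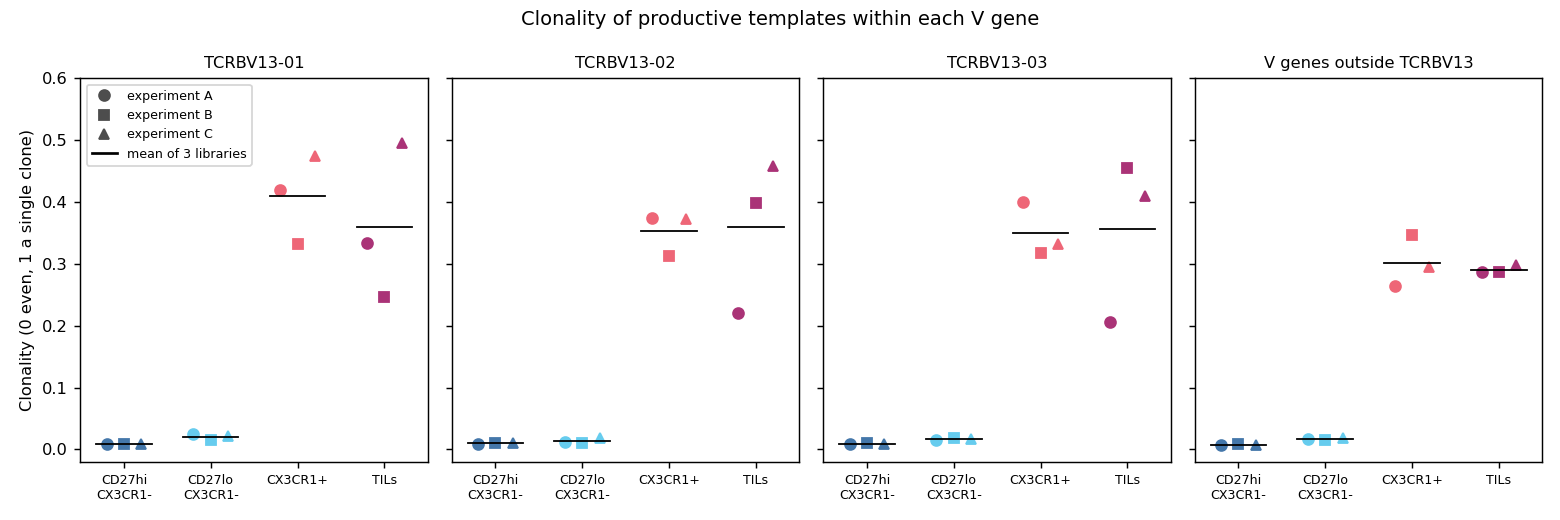
Clonality of productive templates within each TCRBV13 gene and within all V genes outside TCRBV13 (y axis, 0 to 1 scale) in the 4 groups (x axis), 1 symbol per library (shape gives the experiment) and means of 3 libraries as lines. In all panels the CX3CR1+ and TIL libraries sit between 0.205 and 0.496 and the CX3CR1- libraries at 0.0241 or lower.

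Expanded clones, taken as those with at least 0.1% of a library's productive templates, used the family in shares near its share of unique rearrangements, which did not hold for TILs at a higher cut. No TCRBV13 clone reached this size in CD27hi CX3CR1- cells (1 clone of any V gene did), and 3 of 17 expanded clones were TCRBV13 clones in CD27lo CX3CR1- cells. In CX3CR1+ cells 41 of 143, 20 of 126 and 27 of 144 expanded clones of experiments A, B and C used a member, in all 33 TCRBV13-01, 26 TCRBV13-02 and 29 TCRBV13-03 clones. In TILs 26 of 115, 25 of 128 and 28 of 131 did, in all 31, 28 and 20. The family made up 21.1% ± 6.71 (SD, n = 3) of expanded clones against 22.1% of unique rearrangements in CX3CR1+ cells, and 21.2% ± 1.55 against 20.8% in TILs. By gene, the expanded clones of CX3CR1+ cells were 7.83% TCRBV13-01, 6.24% TCRBV13-02 and 7.03% TCRBV13-03, against 6.30, 9.13 and 6.69% of unique rearrangements. Those of TILs were 8.33, 7.59 and 5.25%, against 6.41, 8.71 and 5.71%. In each experiment TCRBV13-02 lay below its unique share in CX3CR1+ cells, and TCRBV13-01 lay above its unique share in TILs. The other genes and groups lay on both sides. Expanded clones held 66.5% ± 16.6, 53.2% ± 7.49 and 58.8% ± 8.34 of each gene's templates in CX3CR1+ cells and 75.8% ± 10.9, 70.3% ± 11.4 and 69.3% ± 21.7 in TILs. With a cut of 0.05% the family made up 20.5% of expanded clones in CX3CR1+ cells and 20.1% in TILs. With a cut of 0.5%, which left 85 and 95 clones in all, it made up 23.4% ± 15.6 in CX3CR1+ cells and 29.2% ± 6.13 in TILs, where 27.3, 24.3 and 36.1% in experiments A, B and C lay above the shares of unique rearrangements. At that cut TCRBV13-01 made up 12.9% ± 12.9 in CX3CR1+ cells, and TCRBV13-03 made up 3.58% ± 3.46 in CX3CR1+ cells and 9.75% ± 4.76 in TILs. These shares are descriptions and were not tested.

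The clones that led each member in CX3CR1+ cells and TILs were named by rule, and those with a CDR3 of up to 14 residues are given. A clone here is 1 nucleotide rearrangement, named by the CDR3 it encodes, and other rearrangements encoding the same CDR3 are not counted with it. The leading TCRBV13-01 clone of experiment C, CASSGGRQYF, held 3439 templates (3.03% of productive templates and 38.5% of the gene) in CX3CR1+ cells, 871 (4.16%) in TILs, 6 in CD27lo CX3CR1- and 3 in CD27hi CX3CR1- cells. In experiment B the leader of both was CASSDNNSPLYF with TCRBJ01-06, at 514 templates (1.01%) in CX3CR1+ cells and 79 (0.638%) in TILs. In experiment A the leaders differed, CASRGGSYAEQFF in CX3CR1+ cells (812 templates, 1.46%) having 0 templates in the TILs, which allows up to 0.0509%, and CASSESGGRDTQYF in TILs (152, 2.58%) having 613 (1.10%) in CX3CR1+ cells.

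Leading TCRBV13-02 clones included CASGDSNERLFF with TCRBJ01-04 and no inserted base, at 686 templates (1.35%) in CX3CR1+ cells and 90 (0.727%) in TILs of experiment B, and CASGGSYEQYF with TCRBJ02-07, at 1384 (1.22%) in CX3CR1+ cells and 59 (0.282%) in TILs of experiment C. The nucleotides of the latter were also found in both other experiments. A single 15-residue CDR3 with TCRBJ01-05 led TCRBV13-02 in both libraries of experiment A (1219 templates, 2.19%, in CX3CR1+ cells and 105, 1.78%, in TILs) and, encoded by other nucleotides, in the TILs of experiment C (623, 2.97%).

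For TCRBV13-03, the leader in CX3CR1+ cells was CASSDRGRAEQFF in experiment A (973 templates, 1.74%, and 0 of this rearrangement in TILs), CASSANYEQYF in experiment B (354, 0.694%, and 212, 1.71%, in TILs) and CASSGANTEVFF in experiment C (554, 0.487%, and 9, 0.0430%, in TILs). In TILs the leaders were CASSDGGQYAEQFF in experiment A (47, 0.798%, and 9, 0.0161%, in CX3CR1+ cells), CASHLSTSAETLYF in experiment B (302, 2.44%, and 154, 0.302%) and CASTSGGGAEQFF in experiment C (347, 1.66%, and 517, 0.455%). The leading rearrangements encoding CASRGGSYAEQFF and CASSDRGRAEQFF were thus absent from the TILs of their experiment, and the others named here were found in both CX3CR1+ cells and TILs, at unequal shares.

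CDR3s found in CX3CR1+ cells or TILs of all 3 experiments were few, 6 of 1630 for TCRBV13-01 (0.368%), 12 of 2237 for TCRBV13-02 (0.536%) and 6 of 1688 for TCRBV13-03 (0.355%), against 79 of 19936 (0.396%) outside the family. The reads of the largest such CDR3 of each member are shown, since they tell a shared amino acid sequence from a shared rearrangement. Capitals mark the bases between the V and J segments, which come from the D segment and from insertion.
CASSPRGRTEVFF (TCRBV13-01, TCRBJ01-01): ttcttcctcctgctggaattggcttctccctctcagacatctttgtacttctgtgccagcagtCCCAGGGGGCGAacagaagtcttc
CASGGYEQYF (TCRBV13-02, TCRBJ02-07): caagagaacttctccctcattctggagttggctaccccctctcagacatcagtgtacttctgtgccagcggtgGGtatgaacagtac
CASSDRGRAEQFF (TCRBV13-03, TCRBJ02-01): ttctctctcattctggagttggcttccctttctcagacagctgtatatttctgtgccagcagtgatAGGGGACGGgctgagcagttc
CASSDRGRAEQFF of TCRBV13-03 was encoded by 10 rearrangements, 0 of them found in more than 1 experiment. Together these held 2.64, 0.108 and 0.0246% of productive templates in CX3CR1+ cells of experiments A, B and C and 0.238, 2.19 and 0.816% in TILs. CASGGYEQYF of TCRBV13-02, whose read has only a short stretch between V and J, was encoded by 15 rearrangements, 7 of them found in more than 1 experiment. It held 0.217, 0.524 and 0.156% in CX3CR1+ cells and 0.272, 1.01 and 1.68% in TILs, against 0.0260, 0.0529 and 0.0210% in CD27hi and 0.0272, 0.0715 and 0.0370% in CD27lo CX3CR1- cells. Its lowest value in CX3CR1+ cells and TILs thus lay above its highest in the CX3CR1- subsets, which was not tested because the CDR3 was chosen on those libraries. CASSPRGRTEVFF of TCRBV13-01 was encoded by 3 rearrangements, 0 of them shared, at 0.0305, 0.0118 and 0.329% in CX3CR1+ cells and 0.187, 0.0161 and 1.01% in TILs.

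Several of the large 10-residue TCRBV13-01 clones began CASSGG, a pattern chosen after its values were seen and therefore given without a test. The reads below show that it arose with several J segments.
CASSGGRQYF (TCRBJ02-05 or TCRBJ02-07): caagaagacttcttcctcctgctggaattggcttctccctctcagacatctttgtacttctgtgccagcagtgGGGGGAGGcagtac
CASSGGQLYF (TCRBJ02-02): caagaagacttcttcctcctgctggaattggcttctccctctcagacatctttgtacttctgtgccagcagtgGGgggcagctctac
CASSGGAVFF (TCRBJ01-01): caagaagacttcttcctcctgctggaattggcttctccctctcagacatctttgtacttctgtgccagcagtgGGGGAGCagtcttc
Such CDR3s held 17.4, 0.389 and 43.1% of TCRBV13-01 templates in CX3CR1+ cells and 10.4, 6.09 and 59.3% in TILs, against 0.122, 0.0332 and 0.228% in CD27hi and 1.10, 0 and 0.682% in CD27lo CX3CR1- cells. Experiments A and C carried most of them, and the CX3CR1+ value of experiment B lay within the range of the CX3CR1- libraries. The same pattern held at most 0.259% of TCRBV13-03 and at most 0.0297% of outside templates in any library. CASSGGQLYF, with no inserted base, was the same rearrangement in CX3CR1+ cells of experiment A (674 templates, 1.21%), TILs of experiment A (41, 0.696%) and TILs of experiment B (26, 0.210%). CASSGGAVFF held 409 templates (0.360%) in CX3CR1+ cells and 179 (0.854%) in TILs of experiment C, whereas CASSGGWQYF held 639 (3.05%) in those TILs and 0 in the CX3CR1+ cells. In CASSGG the germline aspartate is replaced, and CASSD opened 52.7 and 51.5% of TCRBV13-01 templates in the CD27hi and CD27lo CX3CR1- subsets, 26.7% ± 14.2 (SD, n = 3) in CX3CR1+ cells and 23.3% ± 15.3 in TILs, with no overlap and no test. Counted by unique rearrangements the shares were 51.9, 52.1, 46.5 and 37.7%. For TCRBV13-02, CASGD opened 61.5, 60.0, 58.2 and 55.4% of unique rearrangements in the same groups, also with no overlap, but its template shares overlapped. For TCRBV13-03, CASSD opened 38.7, 39.4, 39.0 ± 22.0 and 42.8% ± 13.9 of templates, so its template share did not fall. Counted by unique rearrangements its shares were 37.9, 38.6, 38.0 and 35.1%. By that count the mean was lowest in TILs, while CX3CR1+ cells overlapped the CX3CR1- subsets. V genes outside the family were not counted in this way.

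By templates, TIL clones of the 3 members were found most in the CX3CR1+ subset of the same experiment, although the differences did not pass after adjustment. For TCRBV13-01, 69.3, 71.4 and 72.9% of TIL templates belonged to rearrangements found in CX3CR1+ cells, 61.4, 37.2 and 69.8% to those in CD27lo CX3CR1- cells and 42.4, 47.8 and 39.1% to those in CD27hi CX3CR1- cells. For TCRBV13-02 the values were 45.8, 86.2 and 91.0%, then 29.2, 30.7 and 71.5%, then 34.0, 43.6 and 73.6%. For TCRBV13-03 they were 52.8, 93.1 and 90.5%, then 12.6, 34.6 and 77.0%, then 34.0, 84.7 and 29.1%. In each experiment CX3CR1+ cells gave the highest value for each member, but the groups overlapped across experiments for all 3.

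The differences between CX3CR1+ cells and the mean of the other subsets were 21.6 ± 6.37 points (SD over 3 experiments), 27.2 ± 19.0 and 33.5 ± 3.96. Their exact permutation p was 0.0741, 0.037 and 0.111, where arrangements of the splenic subsets allow no p below 0.037, and the adjusted p was 0.210, 0.126 and 0.256. V genes outside the family gave 65.6, 85.3 and 87.2% in CX3CR1+ cells, within the range of the members. The chance to find a clone depends on depth, and CX3CR1+ libraries held 50994 to 113660 productive templates against 18180 to 21622 in CD27lo and 49116 to 71574 in CD27hi CX3CR1- libraries. At equal depth the differences were 33.7, 41.3 and 45.7 points, with exact permutation adjusted p of 0.210, 0.0787 and 0.0787. Counted by clones, the shares found in CX3CR1+ cells were lower, at 24.3, 29.2 and 45.5% of TIL clones of TCRBV13-01, 11.4, 36.1 and 44.5% of TCRBV13-02 and 23.1, 43.2 and 44.8% of TCRBV13-03 in experiments A, B and C.

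Out-of-frame templates of TCRBV13-01 and TCRBV13-03 were dominated by single rearrangements in individual libraries, most strongly in CX3CR1+ cells. These rearrangements were chosen after their values were seen and are given without a test. In TILs of experiment B the largest held 59.6% of the out-of-frame templates of TCRBV13-01 and 53.2% of those of TCRBV13-03. For TCRBV13-02 the largest held at most 46.5%, in TILs of experiment C, and 35.0% in CX3CR1+ cells of experiment A. In CX3CR1+ cells of experiment C, 1 out-of-frame rearrangement of TCRBV13-01 with TCRBJ02-07 held 14919 templates, 25.8% of all out-of-frame templates and 88.1% of those of the gene. Its read has a single base between V and J.
TCRBV13-01, TCRBJ02-07, out of frame: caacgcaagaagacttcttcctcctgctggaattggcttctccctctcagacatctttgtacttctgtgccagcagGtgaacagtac
The other libraries of experiment C held 95 (CD27hi CX3CR1-), 66 (CD27lo CX3CR1-) and 188 (TILs) templates of it. The share of TCRBV13-01 among out-of-frame templates of the CX3CR1+ library was 29.3% with it and 4.70% without it. In CX3CR1+ cells of experiment B, an out-of-frame rearrangement of TCRBV13-03 with TCRBJ02-01 held 5754 templates (28.9%), with 50, 44 and 101 in the CD27hi, CD27lo and TIL libraries, and the share of TCRBV13-03 was 33.9% with it and 7.06% without. The largest productive rearrangements of the same libraries were also concentrated in the CX3CR1+ cells, TCRBV31-01 at 7191 templates in CX3CR1+ cells of experiment C (27, 19 and 61 in the others) and TCRBV05-01 at 8948 in those of experiment B (93, 78 and 179). Whether such a pair was carried by the same cells was not tested.

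The V genes whose unique productive share ran most like that of each member over the 12 libraries were TCRBV29-01 (Pearson r = 0.77) and TCRBV24-01 (0.68) for TCRBV13-01, TCRBV02-01 (0.86) and TCRBV31-01 (0.49) for TCRBV13-02, and TCRBV12-02 (0.93) and TCRBV12-01 (0.90) for TCRBV13-03. The correlations are descriptions, since all shares of a library sum to a whole and the TIL libraries, which hold the fewest rearrangements, spread most.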

How the data were processed

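TCRβ rearrangements were amplified from genomic DNA by the authors with the ImmunoSEQ survey kit (2 rounds of multiplex PCR), sequenced on a NextSeq and assigned to V, D and J genes on the ImmunoSEQ platform, whose version is not given in the sources used here. The submitters' processing notes name mm10. The deposited values are whole-number template counts per unique nucleotide rearrangement, with no molecular identifiers, so the Wilson 95% intervals and the limit for a count of 0 (3 templates) cover counting error only.

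Rearrangements were kept by the V gene name; 22 had no resolved V gene, 18 of them within the TCRBV13 family, and were not assigned. Members and lists were chosen with earlier results of these data known. V gene counts with a mean of at least 10 unique productive rearrangements per library (24 genes) were tested in edgeR 4.0.16 (R 4.3.3, quasi-likelihood, library total as size, experiment as block, adjusted p below 0.05). The same fit, with the library as block, was made between frames within libraries and for 12 J genes. Single values were tested by two-sided exact permutation within experiments in Python 3.11.15 with scipy 1.17.1. Libraries were paired by the experiment code that their titles share. Their deviations from group means correlated at 0.0488 on average (-0.465 to 0.526, 18 pairs). In unique productive counts simulated for CX3CR1+ cells and TILs over the CX3CR1- subsets (24 genes, 30 simulations), 100% of genes changed 1.5-fold were called. These counts had the same set spread in all libraries, and only more used genes were changed. The value does not cover template counts, which were not simulated, or the wider spread of the TIL libraries. Named genes were the members, the 2 V genes closest to each by correlation, J genes passing for at least 1 member, each member's largest clone per library of CX3CR1+ cells or TILs, and at most 3 shared CDR3s a member. V genes that equalled the template permutation p of TCRBV13-02 were also named. Alternatives were TMM, DESeq2 1.42.0, no filter, at least 2 templates, equal depth (5893 templates, 100 draws), template weights, expanded clone cuts of 0.05 and 0.5%, no block, permutation and leaving out each experiment. Rearrangements with a tied J gene were left out of J tests, which count unique rearrangements. Among productive rearrangements of the members these were 73 in all libraries. In the TILs of experiment C they were 9, which held 25.4% of member templates.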

Additional observations from a re-analysis of the deposited data

How the results depend on the processing

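Of 517 recomputed values of 69 results, 403 were rated as the same. Ratios and differences were rated so if they kept their direction and side of the threshold. Counts of genes or clones were rated so if they stayed equal or of similar size. No member's share of unique rearrangements or of templates was called between groups under any setting. The number of V genes called for unique rearrangements (4) was 0 by permutation and 3 to 6 without 1 experiment. For templates (7) it was 2 with TMM, 4 with at least 2 templates, 1 with no filter, 4 with no block for the paired experiments, 0 by permutation and 0 to 7 without 1 experiment. The cause was not tested. For unique rearrangements the log2 ratio of TCRBV13-01 (0.03) was -0.045 at equal depth and -0.051 to 0.098 without 1 experiment, and that of TCRBV13-02 (-0.04) was 0.0056 with at least 2 templates and -0.10 to -0.01 without 1 experiment. For templates, TCRBV13-01 (0.24) ran from -0.050 to 0.65 without 1 experiment, TCRBV13-02 (-0.31) was 0.055 with DESeq2, and TCRBV13-03 (-0.13) was 0.094 with TMM and 0.22 with DESeq2. Interactions with frame (0 called) were 3 with at least 2 templates and 0 to 1 without 1 experiment, those of the members running from -0.20 to 0.064, -0.14 to 0.035 and -0.17 to 0.045.

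J genes called numbered 3 (DESeq2), 1 (at least 2 templates) and 4 to 7 (without 1 experiment) for TCRBV13-01, 3 (at least 2 templates) and 5 to 6 for TCRBV13-02, and 5 (TMM), 1 (DESeq2) and 1 to 4 for TCRBV13-03. With at least 2 templates, TCRBJ02-05 of TCRBV13-01 turned to 0.022, and TCRBJ01-01, TCRBJ01-02, TCRBJ02-03 and TCRBJ02-05 of TCRBV13-02 turned to 0.13, -0.14, -0.054 and -0.00126. Clonality differences were 0.319 to 0.415, 0.316 to 0.373 and 0.324 to 0.365 without 1 experiment, with adjusted p of 0.189 to 0.236, since fewer arrangements cannot reach the threshold. The CDR3 length difference of TCRBV13-02 was -1.17 with template weights, 0.319 with at least 2 templates and -0.348 to -0.329 without 1 experiment. That of TCRBV13-01 (-0.04) was 0.767 with at least 2 templates (adjusted p = 0.0315 in the exact permutation test), 0.0290 at equal depth and -0.175 to 0.116 without 1 experiment, and that of TCRBV13-03 (0.10) was -0.639 with template weights and -0.0854 to 0.224 without 1 experiment. Inserted bases turned to -0.122 and -0.110 with template weights for TCRBV13-01 and TCRBV13-02. The share without insertions turned to -0.267 (range without 1 experiment -0.642 to 0.745) and -1.82 with at least 2 templates. The family's template share was 0.617 points with at least 2 templates and -1.75 to 1.73 without 1 experiment. TIL libraries held the fewest rearrangements.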
